A study of Mus musculus with 26 samples.

Results

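Of the 16718 genes in the deposited table, 20 were listed at 5 or less in the starting fibroblasts and on days 6, 12, 18 and 22 of a chemical reprogramming course, and reached a mean of 40 or more over days 36 and 40. The genes were chosen by their values in those 7 libraries, so their values there are given as a description and are not tested. Another 4 genes met both thresholds (Fgf4, Lefty2, Prl7a1 and Sox2) but were left out by name, as were several well known pluripotency genes and gene families. The 20 are Aire, Clca4b, Dmrt1, Fabp2, Gdf3, Gm5128, Mybpc3, Myo15b, Npb, Platr10, Ptprh, Rbmxl2, Sgo2b, Sh3rf2, Slc9a3, T, Tcl1, Utf1, Zfy1 and a row whose name reads as a date, Sep-01, which is kept under that name.

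The study follows mouse embryonic fibroblasts (MEF) on their way to pluripotent stem cells with small molecules, measured by RNA sequencing in 26 libraries. The full course, given every chemical, has 1 library on each of days 6, 12, 18, 22, 30, 36 and 40. CiPSC, the established chemically induced pluripotent stem cells, have 6 libraries. A course that left out BrdU, a base analogue that enters DNA in place of thymidine, was sampled once on each of the same 7 days. A course that left out Chir, which blocks GSK3, was sampled once on each of days 6, 12, 18, 22 and 30, and MEF were sampled once. No strain, sex or age of the embryos is used here, and nothing in the labels says whether the CiPSC libraries came from separate lines or cultures, so their spread may be partly technical.

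Pluripotency in the mouse rests on a network of transcription factors around Oct4 (Pou5f1), Sox2 and Nanog, whose genes are silent in fibroblasts. In chemical reprogramming the cells first pass through an intermediate that resembles extraembryonic endoderm, and the pluripotency network follows late. Pluripotent mouse cells also transcribe some genes better known from germ cells.

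Values are whole-number scores with nearly the same distribution in every library, as deposited. The deposited table is named for CPM, but its values do not have the form of CPM and are treated here as scores without a unit, a choice that no source settles. Library totals lay between 4143561 and 4162600, and the depth behind a value is unknown. Changes are compared between libraries within a gene. Counts at the thresholds of 5 and 40, and lists of highest values, set genes side by side by score only, not by amount of RNA. Between 10.4% and 14.2% of genes had a score of 0 in a CiPSC library, against 5.59% to 10.8% in the other libraries. The fibroblast markers Thy1 and Col1a1 stood at 2167 and at the ceiling of 21988 in MEF, and Pou5f1 stood at 4501 to 5522 in CiPSC. The core pluripotency genes did not come on together in the full course: on day 22 Pou5f1 stood at 193, Nanog at 2 and Sox2 at 1, and on day 30 they stood at 246, 32 and 11. The number of 50 pluripotency genes at 40 or more was 14 in MEF and 31, 28, 43 and 46 on days 22, 30, 36 and 40, with all 50 there by median in CiPSC. Of 26 primitive and visceral endoderm genes, 21 were still at 40 or more on day 40, against 3 in CiPSC. A change in a culture's score can come from fewer cells of a type or from less RNA per cell, which cannot be told apart in bulk RNA. The 6 CiPSC libraries were not alike in Y-linked genes, which were chosen after their values were seen. Ddx3y stood at 446 and 476 in CiPSC 3 and 4, at 48 in CiPSC 5 and at 0 in the other 3 libraries.

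The thresholds cut through a run of values. Just inside the late mean of 40 were Npb at 41, Slc9a3 at 41.5 and Gdf3 at 42.5, and just outside were Gm26715 at 37.5 and Prdm14 and Crxos at 37. Aifm3, with a late mean of 623, stood at 6 on day 22 and so missed the early limit of 5.

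The promoters of 4 of the genes are shown as a pair that was high in CiPSC and a pair that was not. Rbmxl2 and Platr10 were high in CiPSC and stood at 1 and 16 on day 30, where Platr10 is the exception among the genes high in CiPSC, while Fabp2 and Slc9a3 were on by day 30 and low or at 0 in CiPSC. Each sequence is the 250 bases before the RefSeq start of the gene (GRCm38.p6), 5′ to 3′ on the gene's strand, with CpG dinucleotides in capitals.
Rbmxl2, chr7:107209195-107209444, plus strand: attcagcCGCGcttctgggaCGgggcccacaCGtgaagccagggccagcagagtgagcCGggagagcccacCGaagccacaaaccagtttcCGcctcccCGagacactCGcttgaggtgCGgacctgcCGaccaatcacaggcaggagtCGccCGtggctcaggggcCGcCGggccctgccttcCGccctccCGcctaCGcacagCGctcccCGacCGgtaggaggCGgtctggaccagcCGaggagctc
Platr10, chr3:75655732-75655981, minus strand: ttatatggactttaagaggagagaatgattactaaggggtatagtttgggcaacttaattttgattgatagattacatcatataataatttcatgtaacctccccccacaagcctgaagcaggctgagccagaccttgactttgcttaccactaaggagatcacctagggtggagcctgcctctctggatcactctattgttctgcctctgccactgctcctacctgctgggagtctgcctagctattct
Fabp2, chr3:122894822-122895071, plus strand: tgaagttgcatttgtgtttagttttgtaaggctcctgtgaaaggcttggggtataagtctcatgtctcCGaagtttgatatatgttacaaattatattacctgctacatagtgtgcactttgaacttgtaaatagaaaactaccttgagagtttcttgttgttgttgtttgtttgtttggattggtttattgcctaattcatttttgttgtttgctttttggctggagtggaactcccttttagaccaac
Slc9a3, chr13:74121163-74121412, plus strand: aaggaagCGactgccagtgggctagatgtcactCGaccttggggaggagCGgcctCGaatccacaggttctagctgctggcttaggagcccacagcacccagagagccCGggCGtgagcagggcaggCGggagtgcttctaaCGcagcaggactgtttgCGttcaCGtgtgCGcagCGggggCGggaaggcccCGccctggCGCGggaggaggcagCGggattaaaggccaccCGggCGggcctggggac
The windows hold 23, 0, 1 and 19 CpG in that order, so CpG number differed within each pair. The Slc9a3 window ends at 74121412, while GENCODE M21 starts the gene at 74121457, so the start of that gene differs between the sources. A promoter was found for 15 of the 20 genes, with a median of 6 CpG, the same median as over all 32817 promoters of that length. The octamer ATGCAAAT, the sequence that Oct4 binds, was found on either strand in 1 of the 15 (Ptprh), against 1.6% of all promoters. The letters ACAATGG, a SOX sequence, were in none, against 3.02% of all promoters. The E-box CACGTG was in 2 (Rbmxl2 and Slc9a3), against 6.02%. The letters CAAAGTCC, part of a site for HNF4, were in none, against 1.2%, and TTTATGG, a site for CDX factors, was in 1 (T), against 2.43%. None of these motifs overlaps another in the member promoters, and a match is a description only.

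In GENCODE M21, on the mm10 assembly that the submitters' processing notes name, Utf1 lies on chromosome 7 from 139943789 to 139945112 and Tcl1 on chromosome 12 from 105216750 to 105222793. Gdf3 lies on chromosome 6 from 122605403 to 122610087, Dmrt1 on chromosome 19 from 25505618 to 25604329 and T on chromosome 17 from 8434423 to 8442496. Gm5128 lies on chromosome X from 135373284 to 135383393 and Zfy1 on chromosome Y from 725128 to 797409. Platr10 is annotated as a long intergenic noncoding RNA, and the other 18 genes with an annotation are protein-coding.

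Most of the genes had 1 of 2 patterns by their values on day 30 and in CiPSC, libraries that the rule did not read. On day 30 of the full course, 11 of the 20 genes were still at 5 or less and 9 stood at 16 or more. Of 990 other genes that were as low through day 22, 16.1% were over 5 on day 30, against 84.2% of all genes. Apart from the 4 left out by name, these 990 had a late mean under 40. Lower shares among them are therefore partly set by the rule. In CiPSC, 9 of the 20 genes had a median of 40 or more, against 12.8% of those 990 and 61.4% of all genes. Of these 9, 8 were at 5 or less on day 30, and of the 11 genes with a lower CiPSC median, 8 were over 5 on day 30. Among the 990, 104 of the 127 with a CiPSC median of 40 or more were also at 5 or less on day 30. The first pattern was thus common among other genes as low early on. Of the 863 with a lower CiPSC median, 136 were over 5 on day 30.

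**Figure D1:**
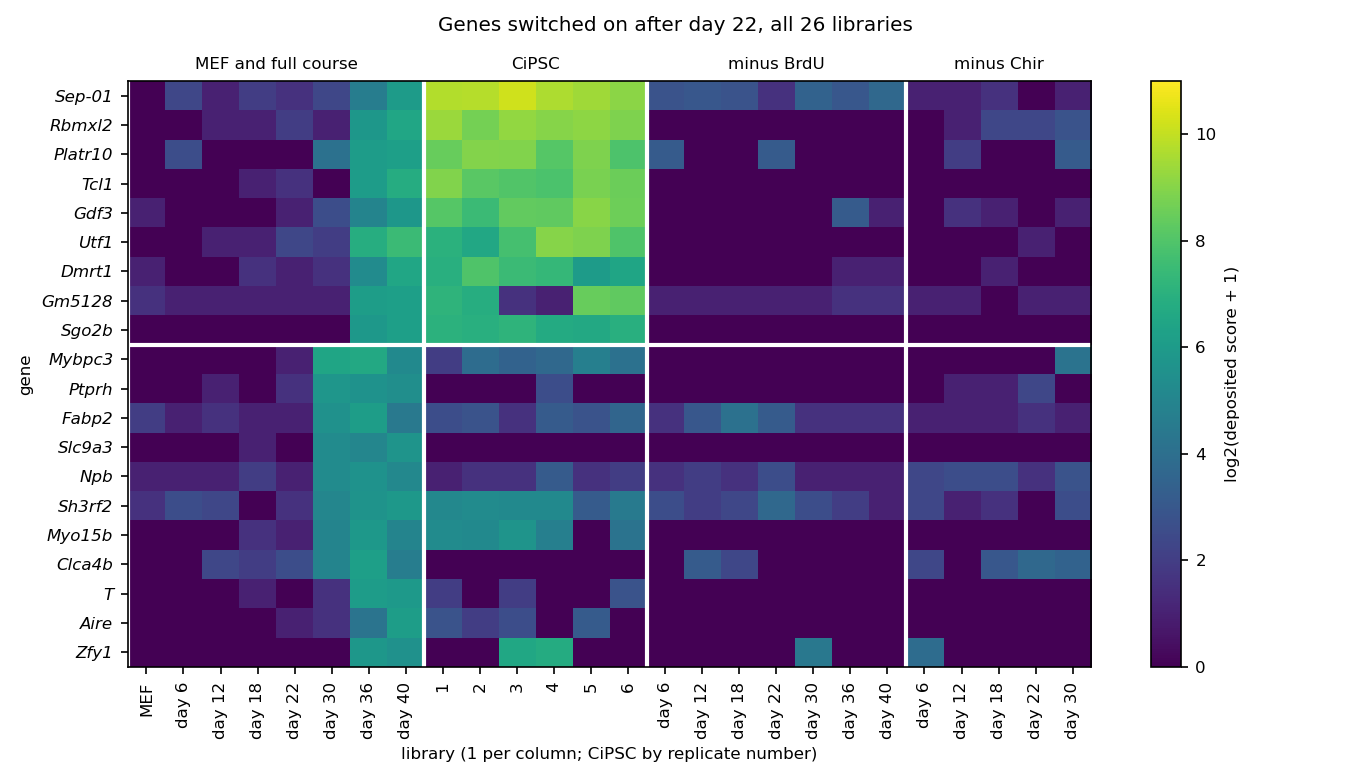
Heat map of log2(deposited score + 1) for the 20 genes (rows) in all 26 libraries (columns, grouped as MEF and full course, CiPSC, minus BrdU and minus Chir). The 9 genes above the white line have a CiPSC median of 40 or more and are dark through day 30 except Platr10, while 8 of the 11 below it are already light on day 30.

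The rule read days 36 and 40, each with 1 library, so their order is a description with no test and is no support for the patterns. All 9 genes with a CiPSC median of 40 or more stood higher on day 40 than on day 36, as did 89 of the 127 with such a CiPSC median among the 990. Of the 11 others, 3 stood higher on day 40 (Aire, Sh3rf2 and Slc9a3) and 8 lower, and 304 of the 863 others among the 990 stood higher.

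**Figure D2:**
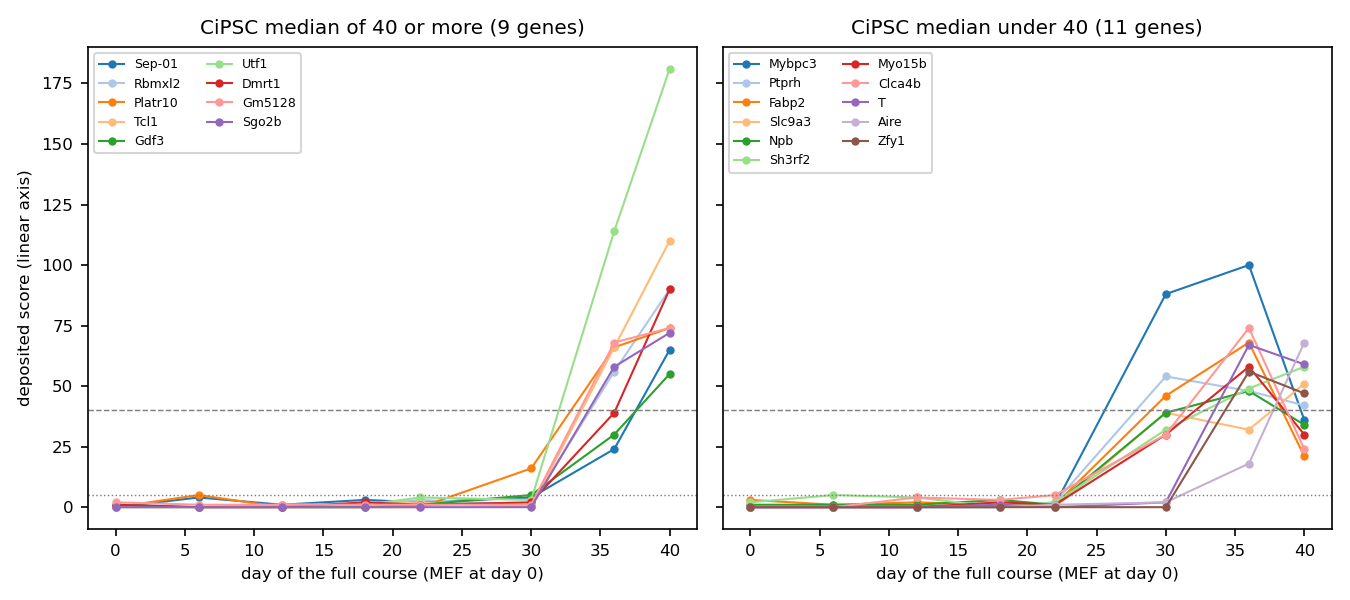
Deposited score (linear axis) against the day of the full course, with MEF at day 0 and 1 library per point, for the 9 genes with a CiPSC median of 40 or more (left) and the 11 others (right). Dotted and dashed lines mark 5 and 40, and every line on the left ends at its highest point while 8 of 11 on the right end below their day 36 value.

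Among the genes that were high in CiPSC, 3 stand in a list of known pluripotency genes. Utf1, a chromatin-bound factor of embryonic stem cells, stood at 3, 114 and 181 on days 30, 36 and 40. In the 6 CiPSC libraries it stood at 128, 96, 216, 510, 462 and 250, so its late course values lay within the CiPSC range of 96 to 510. Tcl1, a coactivator of the kinase AKT in embryonic stem cells and lymphocytes, stood at 0, 66 and 110 on those days and at 235 to 484 in CiPSC. Gdf3, a secreted ligand of the TGF-beta family, stood at 5, 30 and 55 on those days and at 179 to 524 in CiPSC. Both Tcl1 and Gdf3 were thus below every CiPSC library on day 40.

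None of the 20 genes stands in the germline and meiosis list, of which 56 genes were measured. Rbmxl2, a testis RNA-binding protein, stood at 1, 56 and 90 on days 30, 36 and 40, and averaged 532 ± 85.8 in CiPSC (SD, n = 6). Dmrt1, a transcription factor of testis and germ cells, stood at 2, 39 and 90 on those days. In CiPSC it stood at 121, 248, 178, 159, 64 and 88, and day 40 fell within that range. Sgo2b, of the shugoshin family that protects cohesin at centromeres, stood at 0, 58 and 72 and at 100 to 143 in CiPSC. Its close relative Sgo2a was at 56 or more in MEF and every full course library and at 422 to 793 in CiPSC. How the counting divided reads between these 2 copies is not given in the sources used here, so the Sgo2b values are uncertain.

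Platr10, a noncoding transcript named for its link to pluripotency, was the only gene of the 9 over 5 on day 30. It stood at 16, 66 and 74 on days 30, 36 and 40 and averaged 387 ± 112 in CiPSC (SD, n = 6). The row Sep-01 stood at 4, 24 and 65 on those days and at 536 to 1166 in CiPSC, where its mean was 819 ± 212 (SD, n = 6). Gm5128, a predicted X-linked gene, stood at 1, 68 and 74 on days 30, 36 and 40. It stood at 140, 114, 2, 1, 348 and 319 in CiPSC 1 to 6, so CiPSC 3 and 4 were as low as MEF, which stood at 2.

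Zfy1, a zinc finger gene of the Y chromosome, showed the opposite split among the CiPSC libraries. It stood at 94 and 108 in CiPSC 3 and 4 and at 0 in the other 4. On days 30, 36 and 40 of the full course it stood at 0, 56 and 47. Another Y-linked gene, Uty, stood at 210 and 202 in CiPSC 3 and 4, and at 4, 0, 52 and 1 in CiPSC 1, 2, 5 and 6. In MEF and the full course Uty stood at 147 to 230, also on the days on which Zfy1 was at 0. Not every Y-linked gene had a signal there, with Usp9y at 28 in MEF and at 0 on days 6 and 12. Zfy2, a near copy of Zfy1, was at 44 on day 40, 24 in CiPSC 3 and 0 in the other libraries of MEF, the full course and CiPSC. Eif2s3y also stood highest in CiPSC 3 and 4, at 501 and 283, against 20 to 78 in the others. The Y-linked genes did not all split this way. Kdm5d stood at 48, 78, 60, 88, 75 and 66 in CiPSC 1 to 6, and Usp9y stood at 76 in CiPSC 4 and at 0 in the other 5. What these differences among the CiPSC libraries contribute to the values of Zfy1 and Gm5128 was not tested.

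**Figure D3:**
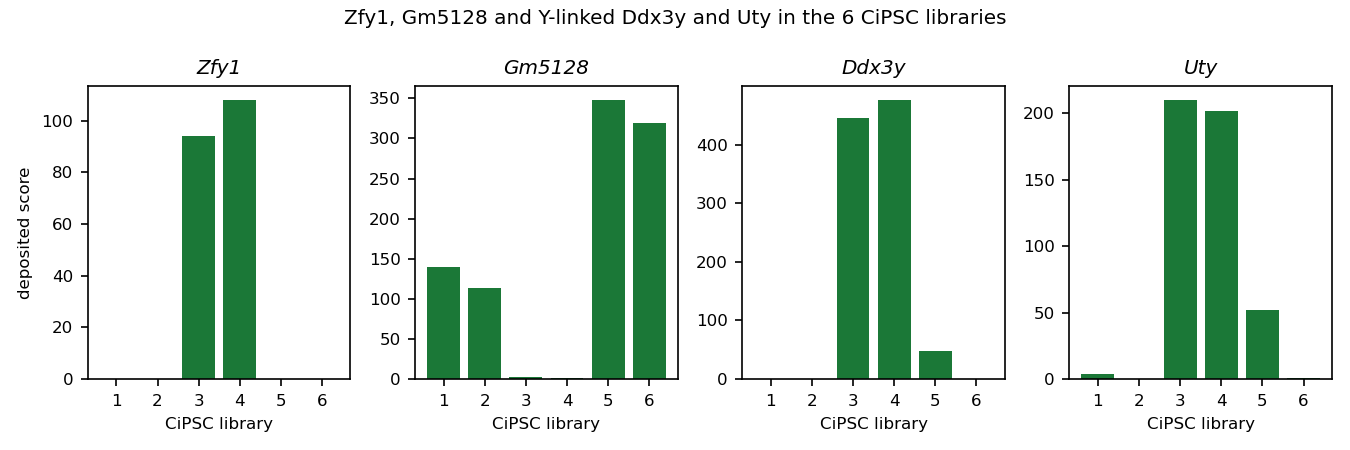
Deposited score (vertical axis, linear and from 0, its own scale in each panel) of Zfy1, Gm5128, Ddx3y and Uty in CiPSC libraries 1 to 6, 1 bar per library. Zfy1, Ddx3y and Uty are high in CiPSC 3 and 4, the 2 libraries in which Gm5128 stands at 2 and 1.

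Another set of genes came on between days 22 and 30. Slc9a3, the sodium-hydrogen exchanger of the intestinal brush border, stood at 0 on day 22 and at 39, 32 and 51 on days 30, 36 and 40. It was listed at 0 in all 6 CiPSC libraries and on every day without BrdU or without Chir. Fabp2, the intestinal fatty acid-binding protein, stood at 1 on day 22 and at 46, 68 and 21 on the later days, and at 2 to 11 in CiPSC. Ptprh, a receptor tyrosine phosphatase of gut epithelium, stood at 2 on day 22, then at 54, 48 and 42, and was listed at 0 in 5 of 6 CiPSC libraries. The late values of these 3 genes all lay above their CiPSC range, a description only, as the rule chose genes high on days 36 and 40. Other genes known from the gut, chosen after earlier results were seen, had no common course over the same days. Vil1 stood at 6 on day 22 and at 64, 73 and 22 later, Muc13 at 46 and then 218, 146 and 157, and Cdx2 at 44 and then 66, 80 and 32. Fabp1 stood at 40 on day 22 and at 12, 14 and 5 later, Apoa4 at 190 and then 112, 135 and 51, and Cdx1 at 0 and then 0, 1 and 1.

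Clca4b, of a family that modulates chloride currents, stood at 5 on day 22, at 30, 74 and 24 later and at 0 in all 6 CiPSC libraries. Its relative Clca4a stood at 10 on day 22 and at 0 on days 30, 36 and 40. Mybpc3, the cardiac myosin-binding protein C, stood at 1 on day 22, then at 88, 100 and 36, and at 3 to 26 in CiPSC. Npb, which encodes neuropeptide B, stood at 1 on day 22, then at 39, 48 and 34, and at 1 to 8 in CiPSC. Every late value of these 3 genes was above every CiPSC library. On days 36 and 40, which the rule read, this held for 9 of the 20 genes and for 25.7% of all genes.

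The unconventional myosin gene Myo15b and Sh3rf2, a RING finger protein, came on by day 30 and were also present in CiPSC. Myo15b stood at 1 on day 22, at 30, 58 and 30 on days 30, 36 and 40, and at 39, 36, 50, 26, 0 and 17 in CiPSC, so days 30 and 40 lay within the CiPSC range. Sh3rf2 stood at 2 on day 22, then at 32, 49 and 58, and at 8 to 38 in CiPSC, so day 30 lay within that range and days 36 and 40 above it.

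Aire, T and Zfy1 belonged to neither set, being at 2 or less on day 30 with a CiPSC median under 40. T (brachyury), the transcription factor of the primitive streak and early mesoderm, stood at 2, 67 and 59 on days 30, 36 and 40, and at 0 in 3 of 6 CiPSC libraries, with a highest value of 6. Aire, which drives tissue antigens in the thymus, stood at 2, 18 and 68 on those days and at 0 to 8 in CiPSC. T is 1 of 17 measured genes of a formative and post-implantation epiblast list. Of these, 7, 5, 8 and 9 were at 40 or more on days 22, 30, 36 and 40, with 8 there by median in CiPSC.

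In the incomplete courses none of the 20 genes reached 40 on any day. That level was reached there by 8.18% of the 990 other genes and by 75.6% of all genes. With so small a share among the 990, its absence among 20 genes says little about them. The highest values were 20 for Zfy1 on day 30 without BrdU, 17 for Mybpc3 on day 30 without Chir and 16 for Fabp2 on day 18 without BrdU. Of the 20 genes, 13 stayed at 5 or less on all 7 days without BrdU (65.1% of the 990 did) and 14 on all 5 days without Chir (68.9%), shares near those of other genes as low early on. At 0 throughout without BrdU were 10 genes (50%, against 28.0% of the 990), including Utf1, Tcl1, Rbmxl2, Sgo2b, T and Slc9a3. At 0 throughout without Chir were 6 genes (30%, against 26.2%), a share near that of the 990. In both incomplete courses 10 genes stayed at 5 or less (50%, against 49.9%).

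Days 30, 36 and 40 without BrdU were tested against days 6 to 22 of that course, libraries the rule did not read, to ask whether the genes moved with time when BrdU was left out. With limma on log2(score + 1), no gene of the 20 was called at an adjusted p under 0.05 (3 against 4 days), where 13.1% of all 16663 genes tested were called, 6.24% higher and 6.91% lower. At an unadjusted p under 0.05 there were 2, both at low scores. Gdf3 stood at 0, 8 and 1 on the late days and at 0 on the 4 early ones (limma adjusted p = 0.147). Fabp2 stood at 2 on each late day and at 2, 7, 16 and 8 on the early ones (log2 change -1.38 ± 0.53, limma adjusted p = 0.0974). In Npb the groups did not overlap, at 1 on each late day and at 2, 3, 2 and 5 on the early ones, as in 12.3% of all genes lower on the late days, but it was not called (limma adjusted p = 0.223). The median log2 change was 0 over the 20 genes and 0 over all genes, and the 10 genes at 0 on all 7 days could show no change. Days stood in for replicates here, so the spread holds change with time as well as noise.

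CiPSC were then set against days 30 to 40 without BrdU, to ask how far the genes differ between established stem cells and cells of a late course that lacked 1 chemical. Of the 20 genes, 14 were higher in CiPSC and 0 were lower (limma, adjusted p under 0.05, 6 against 3 libraries), where 65.5% of all genes tested were called, 34.1% higher and 31.4% lower. None of the 20 stood above 20 on these late days, so a call lower in CiPSC had little room. In 10 of the 20 the CiPSC libraries all lay above the late minus BrdU days, as in 28.4% of all genes. The 9 genes with a CiPSC median of 40 or more were among the 14. They were grouped by these same CiPSC libraries, so this is no separate support for that group. The collagen gene Col1a1 stood at 24 to 152 in CiPSC and at the ceiling of 21988 on all 3 late days without BrdU, and its part in these differences was not tested.

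Sep-01 averaged 819 ± 212 in CiPSC and 9.67 ± 2.52 on the late days without BrdU (SD, n = 6 and 3), a log2 change of 6.25 ± 0.38 (limma adjusted p = 1.68e-10). Gdf3 averaged 333 ± 115 in CiPSC and 3 ± 4.36 without BrdU, a change of 6.92 ± 0.56 (limma adjusted p = 6.41e-09), and Dmrt1 averaged 143 ± 66.7 and 0.667 ± 0.577, a change of 6.37 ± 0.43 (limma adjusted p = 6.82e-10). Utf1, Tcl1, Rbmxl2, Sgo2b and Platr10 were at 0 on all 3 late days without BrdU, so no fold is given for them (limma adjusted p from 3.60e-13 for Tcl1 to 4.03e-08 for Platr10). In these 8 genes the groups did not overlap. Gm5128 overlapped because of CiPSC 3 and 4 and was called with a change of 4.17 ± 1.32 (limma adjusted p = 0.0103).

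Of the genes that came on by day 30, Sh3rf2 was higher in CiPSC, at 29.0 ± 11.8 and 3 ± 2 without BrdU (SD, n = 6 and 3), a log2 change of 2.89 ± 0.61 (limma adjusted p = 0.000479). Mybpc3 averaged 13.5 ± 7.58 in CiPSC and was at 0 on the 3 days without BrdU (limma adjusted p = 0.000478), as was Myo15b, at 28.0 ± 17.8 in CiPSC (limma adjusted p = 0.000320). Fabp2 and Aire were called at low scores. Fabp2 averaged 6.33 ± 3.01 in CiPSC and 2 without BrdU, a change of 1.17 ± 0.49 (limma adjusted p = 0.0427), and Aire averaged 3.67 ± 3.27 in CiPSC and was at 0 without BrdU (limma adjusted p = 0.0157). T, Zfy1, Ptprh, Npb, Clca4b and Slc9a3 were not called, with Clca4b and Slc9a3 at 0 in both groups. The Zfy1 difference had a 95% interval of -2.58 to 4.10 on the log2 scale, so a change of either sign remains within it.

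Against the 5 days without Chir the picture was similar, though both comparisons share the CiPSC libraries. Of the 20 genes, 15 were higher in CiPSC and 1 lower (limma, adjusted p under 0.05, 6 against 5 libraries), where 69.8% of all genes were called, 35.9% higher and 33.8% lower. None of the 20 stood above 17 on a day without Chir, so calls lower in CiPSC again had little room. In 9 of the 20 all CiPSC libraries lay above every minus Chir day, as in 25.5% of all genes. Rbmxl2 averaged 532 ± 85.8 in CiPSC and 3 ± 2.45 without Chir (SD, n = 6 and 5), a log2 change of 7.35 ± 0.40 (limma adjusted p = 4.59e-11). Sep-01 had a change of 8.72 ± 0.32 (limma adjusted p = 2.47e-13) and Utf1 of 7.67 ± 0.41 (limma adjusted p = 2.84e-11).

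Clca4b was the gene that was lower in CiPSC. It was listed at 0 in all 6 CiPSC libraries and stood at 4, 0, 7, 12 and 10 on days 6, 12, 18, 22 and 30 without Chir (limma adjusted p = 0.00213). Its relative Clca4a stood at 7, 20, 52, 44 and 4 on the same days, and the part of reads shared between these copies in this call was not tested. Mybpc3 was higher in CiPSC with a change of 2.82 ± 0.66 (limma adjusted p = 0.00105), and its minus Chir days stood at 0 except day 30, at 17. T was called at 2 ± 2.45 in CiPSC and 0 on all 5 days without Chir (limma adjusted p = 0.0406), with 3 of the 6 CiPSC libraries also at 0. That call ended with a pseudocount of 5 (limma adjusted p = 0.0726), in a fit on the 2 groups alone (0.0793), and without any 1 of the 5 minus Chir days or CiPSC 1, 3 or 6 (up to 0.0937). Zfy1, Ptprh, Npb and Slc9a3 were not called.

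**Figure D4:**
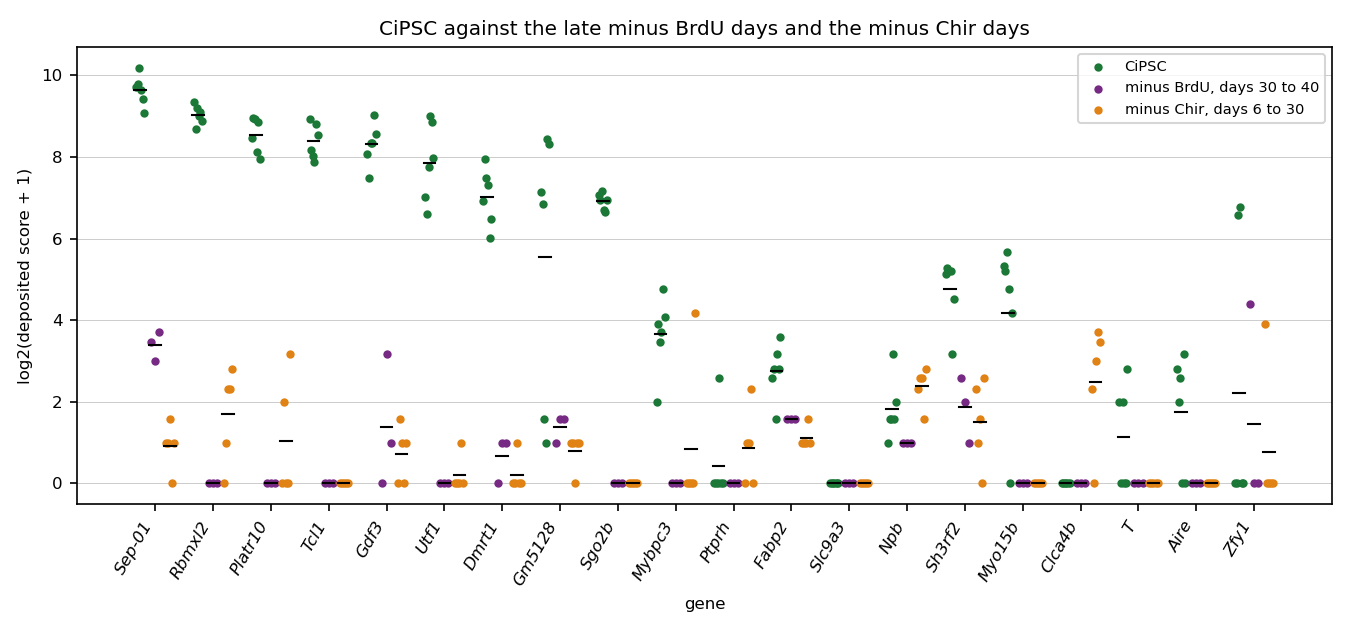
Log2(deposited score + 1) of the 20 genes (horizontal axis) in the 6 CiPSC libraries (green), the 3 late days without BrdU (purple) and the 5 days without Chir (orange), 1 point per library with group means as black bars. For Sep-01, Rbmxl2, Platr10, Tcl1, Gdf3, Utf1, Dmrt1, Sgo2b and Sh3rf2 every green point is above every purple and orange one.

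Lists of related genes, chosen with earlier results of these data known, give the setting for those counts. Of 50 pluripotency genes, 47 were higher in CiPSC than on days 30 to 40 without BrdU and 0 lower, with a median log2 change of 7.47 (0.06 over all genes), and 47 were higher and 1 lower against the days without Chir. Of 56 germline and meiosis genes, 51 were higher and 0 lower against the late days without BrdU (median 4.46), and 50 were higher and 2 lower against the days without Chir. Of 26 primitive and visceral endoderm genes, 5 were higher and 9 lower against the late days without BrdU (median -0.55), and 2 were higher and 17 lower against the days without Chir. The median over the 20 genes was 3.91 in the first comparison and 3.72 in the second. These medians include genes at 0 throughout a group, whose fitted changes depend on the added 1.

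Without CiPSC 3 and 4, the 2 libraries with the highest Ddx3y, Uty and Eif2s3y, the same numbers of genes were called higher, 14 against the late days without BrdU and 15 against the days without Chir. The Gm5128 change against the late days without BrdU was then 6.30 (limma adjusted p = 7.75e-09). Calls at low scores were less stable. That of Fabp2 against the late days without BrdU ended with a pseudocount of 5 (limma adjusted p = 0.0570) and when any 1 of 8 of the 9 libraries was left out, and those of Aire (0.0757) and Gm5128 (0.0774) ended in a fit on the 2 groups alone. Whether CiPSC libraries were prepared together with the courses is not given, so preparation and group cannot be told apart.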

How the data were processed

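RNA sequencing of 26 mouse libraries was deposited as 1 gene table. Per the submitters' processing notes, the tools were RSEM, Bowtie2 and bcl2fastq and the assembly mm10, and no version, role or order is given. The authors deposited whole-number scores with nearly the same distribution in every library, which reads as quantile normalization followed by rounding, although the table's name says CPM and no source states the step. They are not raw counts, and whether they were scaled to gene length is not given. The depth is unknown, and quantile normalization can move low values and hide differences in total RNA. Whether counting used strand is not given in the sources used here. Every column was matched to a library by its label.

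The 20 genes were found by the stated thresholds (5 and 40). The genes and the gene lists were chosen with earlier results of these data known, and all 20 were to be described. For the 18 libraries not read by the rule, log2(score + 1) was fitted in 1 model with 4 groups in limma 3.58.1 (R 4.3.3) with an intensity trend, over the 16663 genes with a mean of at least 1, which the rule itself makes all 20 pass. Benjamini-Hochberg adjustment ran over all 16663 genes, tests were two-sided, and errors of log2 changes are standard errors. Fold changes on this scale understate those of low genes. P-values measure only the spread between these libraries, which may be technical. The model fit was tested on simulated data with changes only in genes of higher mean score, so that test does not cover low scores. Alternatives were another pseudocount, other filters, 2-group fits, no trend, another late window, other thresholds and leaving out each library. Promoters came from RefSeq (GRCm38.p6) and positions from GENCODE M21.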

Additional observations from a re-analysis of the deposited data

Results flagged for a closer look

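In 9 of 38 groups of values, 1 library stood far from the rest of its group by Dixon's test, which chance does in about 1 of 20 groups. All are low scores, where a step of 1 can be enough. Among CiPSC, library 4 was the highest for Ptprh, at 5 with the others at 0, and for Npb, at 8 with the next at 3. Without Chir, Mybpc3 stood at 17 on day 30 and Zfy1 at 14 on day 6, with the other days at 0. Ptprh stood at 4 on day 22 without Chir, where the next value was 1. Utf1 on day 22 and Dmrt1 on day 18 stood at 1 without Chir, against 0 on the other days. Fabp2 stood at 2 on day 22 without Chir and at 1 on the other days, and Gm5128 at 0 on day 18 and at 1 on the other days.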

How the results depend on the processing

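The number of genes that met the rule depends on its thresholds: 12 with an early limit of 2, 54 with a limit of 10, 75 with a late mean of 20, 2 with a late mean of 80, and 10 with 40 or more on each of days 36 and 40. Without BrdU, late against early days, leaving out 1 library gave 1154 to 2161 genes called (2191 with all), with 1154 without day 40 and 1429 without day 36. Of the 20 genes, 0 to 1 were then called higher and 0 to 1 lower. With days 36 and 40 alone as the late window 1 was called higher, Gdf3 (limma adjusted p = 0.0352, range over alternatives 0.0352 to 0.669), and without day 6, Fabp2 was called lower (0.0182, range 0.0182 to 0.264). For CiPSC against the late days without BrdU, leaving out 1 library gave 13 to 14 genes called higher and 0 lower. Against the days without Chir it gave 14 to 15 higher and 1 to 2 lower, where Npb was the added gene without CiPSC 4 (limma adjusted p = 0.0346, range 0.0346 to 0.370). Without CiPSC 3 and 4, an alternative chosen after seeing the data, 2 were lower. This check covers only the 34 pairs of gene and comparison that were called under at least 1 setting. Pairs never called were left out, so it says nothing about their direction. Over 538 alternatives for these 34 pairs, none changed direction, 21 lost a call and 8 gained one, in 8 pairs. The call of T against the days without Chir was among them (range 0.0148 to 0.0937). The causes were not tested. No paired analysis was possible because the course libraries are single days and the CiPSC numbers only name libraries. With no depth known, the counting error of low scores cannot be given, and days stand in for replicates.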

Other observations

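Some genes just outside the thresholds were also far apart between the late full course and CiPSC. Aifm3 stood at 418, 626 and 620 on days 30, 36 and 40 of the full course and at 0 to 10 in CiPSC. Prdm14, a transcription factor of naive pluripotency and germ cell precursors, stood at 2, 18 and 56 on those days and at 146 to 390 in CiPSC. Crxos stood at 10, 38 and 36 and at 172 to 303 in CiPSC. The 4 genes left out by name include Fgf4, a growth factor of the inner cell mass, at 0, 34 and 138 on those days, and Lefty2, an inhibitor of Nodal, at 10, 92 and 110.

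Gm5128 was not alone in being low in CiPSC 3 and 4, and the genes named here were chosen after their values were seen. Hsf3 stood at 4 and 7 in CiPSC 3 and 4 and at 62 to 78 in the other 4 libraries. Nlrp4c stood at 7 and 10 there and at 71 to 102 in the others. The row 1700013H16Rik stood at 216 and 169 there and at 975 to 1517 in the others.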
